A study of Danio rerio with 10 samples.

Results

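Unknown immune cells are the cells to which the study's annotation of adult zebrafish kidney gave the name unknown immune, an immune population left without a lineage. Every cell that carried this name in the whole-kidney table was taken, which gave 534 of 101598 cells. Whole kidneys of wild-type (WT), cebp1-/- and cebpb-/- zebrafish of the AB strain without a transgene were profiled by 10x 3′ single-cell RNA sequencing, with 3 libraries per genotype. According to the methods of the study, each library came from 1 adult female fish of 3 months, so genotypes were compared over fish. Both mutations were present in all cells of the fish, and other blood lineages differed between the genotypes as well. For each cell the table gave its annotation, how many UMIs were counted (unique molecular identifiers, 1 for each transcript molecule captured), how many genes were detected and what percentage of the UMIs was mitochondrial. It held no level of any single gene, so the name unknown immune could not be checked against marker genes from it. Whether the genes behind the name differed between genotypes was not tested here. The study itself lists markers for its cell types, and genes that differ by type between WT and each mutant. Those lists were not used here.

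The kidney marrow is the blood-forming organ of adult zebrafish and holds haematopoietic stem and progenitor cells (HSPCs) together with maturing erythroid, myeloid and lymphoid cells. Cebp1 and Cebpβ are C/EBP transcription factors, leucine zipper proteins that act in myeloid differentiation in vertebrates. Small populations of immune cells that do not match the markers of a major lineage are commonly left unnamed in single-cell surveys, and such a population may hold 1 cell type or several.

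The 9 libraries held 7918 to 14440 cells and 26076072 to 48071055 UMIs each. The lowest totals of UMIs were those of cebpb libraries 2 and 3 (30038362 and 26076072), whereas every other library held at least 43762214. Within libraries 2 and 3 of each genotype, total UMIs and the cebpb genotype therefore cannot be told apart. Library 1 of each genotype stood apart, with a median mitochondrial percentage per cell between 0.884 and 1.69% against 3.39 to 9.47% in the other 6 libraries. Results are therefore also given for libraries 2 and 3 of each genotype where that changed them. Of the barcode sequences, 1225 occurred in more than 1 library, over 2459 cells (2.42% of all). Among unknown immune cells 16 of 534 (3.0%) had such a barcode, and 0 barcodes were shared by a pair of unknown immune cells.

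Unknown immune cells were the rarest of the 15 annotated types by mean share. Their mean share of all cells was 0.537% ± 0.286 (SD over 9 libraries), below thrombocytes (0.870% ± 0.395), unknown cells (0.891% ± 0.378), kidney cells (1.02% ± 0.992) and eosinophils (2.31% ± 2.14). They were the least frequent type in 3 of 9 libraries and never ranked higher than the fifth from the lowest. They were more frequent than thrombocytes in 2 libraries, than unknown cells in 1, than kidney cells in 1, than eosinophils in 3, than neutrophils in 1 and than atypical cells, a type that was abundant only in some libraries, in 5. The highest share of unknown immune cells over libraries was 3.78 times the lowest, against 17.8 times for eosinophils and 76.8 times for neutrophils. Eosinophils are here all cells of that name in the cell table, which exceed the eosinophil counts in the study's methods. The order is a description, since the annotation was made on the same cells.

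The share of unknown immune cells in all cells differed between fish of 1 genotype (exact Clopper-Pearson 95% intervals, counting error only). It was highest in library 1 of each genotype. The same held with cells other than erythrocytes and with immune cells as the denominator, both given below. In WT, 64 of 8262 cells (0.775%, interval 0.597 to 0.988%), 42 of 12400 (0.339%, 0.244 to 0.458%) and 37 of 13095 (0.283%, 0.199 to 0.389%) were unknown immune cells. In the cebp1 mutants they were 53 of 12218 cells (0.434%, 0.325 to 0.567%), 34 of 12384 (0.275%, 0.190 to 0.383%) and 33 of 10555 (0.313%, 0.215 to 0.439%). In the cebpb mutants they were 150 of 14440 cells (1.04%, 0.880 to 1.22%), 52 of 10326 (0.504%, 0.376 to 0.660%) and 69 of 7918 (0.871%, 0.679 to 1.10%). All 3 cebpb mutant fish lay above all 3 cebp1 mutant fish, whereas WT library 1 lay above cebpb library 2. The order of the genotypes rests on the genotype column of the cell table. The genotype of each barcode suffix was taken from that column. Their match in all 101598 cells shows only that each suffix held a single genotype, and is no separate check of the column. The number of cells of each suffix did equal a total that the study's methods list for that genotype. The study's own account of the proportions has the mutants in the opposite order for this type and for unknown cells. For neutrophils, eosinophils and atypical cells the mutants have the same order in both sources. Neither point settles the order for unknown immune cells. Which of the sources is right could not be settled from the cell table. Every direction between the mutants, and of each mutant against WT, given here for unknown immune cells holds only if the cell table is right.

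As a share of all cells, unknown immune cells did not pass the test in any of the 3 comparisons, and the largest difference was that between the mutants. The means were 0.465% ± 0.269 in WT, 0.340% ± 0.0831 in the cebp1 mutants and 0.805% ± 0.274 in the cebpb mutants (SD, n = 3 each). Between the cebpb and cebp1 mutants the ratio of means was 2.36, and the fitted log2 difference was 1.24 (SE 0.50, 95% interval 0.11 to 2.37) at an adjusted p = 0.176 (edgeR quasi-likelihood test, Benjamini-Hochberg over 15 types). The unadjusted p of that test was 0.0352, the exact permutation test gave p = 0.1, the smallest that 3 against 3 fish allow, and 13.3% of types were called in that comparison. The groups did not overlap there, as was the case for 26.7% of the types.

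Against WT, unknown immune cells of the cebpb mutants were higher in 8 of 9 pairs of fish, with a ratio of means of 1.73. The log2 difference was 0.80 (SE 0.50, interval -0.33 to 1.92; edgeR adjusted p = 0.551, exact permutation p = 0.2), with 6.67% of types called. For the cebp1 mutants against WT the log2 difference was -0.44 (SE 0.50, interval -1.57 to 0.68; edgeR adjusted p = 0.748, exact permutation p = 0.6), with 13.3% called. This sign rested on WT library 1, since without it the difference was 0.13. Without WT library 1 the difference between the cebpb mutants and WT was 1.37 (edgeR adjusted p = 0.125), a value over 1.5 times that of all libraries.

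Erythrocytes, which carry oxygen and are nucleated in fish, took between 6.74% of the cells (WT library 1) and 50.8% (cebpb library 2), and the share of unknown immune cells was therefore also taken of the cells other than erythrocytes. WT fish then had 0.831%, 0.557% and 0.521% unknown immune cells, cebp1 mutants 0.738%, 0.393% and 0.387%, and cebpb mutants 1.30%, 1.02% and 1.15%. All 3 cebpb mutant fish were above all WT and all cebp1 mutant fish on this scale. The ratio of means was 1.82 against WT and 2.29 against the cebp1 mutants (exact permutation p = 0.1 for both, the smallest possible), and 21.4% and 42.9% of the types did not overlap in these comparisons. The log2 differences were 0.86 (edgeR adjusted p = 0.30) and 1.20 (edgeR adjusted p = 0.0631), so neither passed. With the library number as a block, which pairs libraries of 1 number, the difference between the mutants passed at 1.25 (edgeR adjusted p = 0.0362, with 28.6% of the 14 types called). The sample labels do not name such pairs. The pairing was chosen from correlations of the type shares of these same libraries, the lowest of which was -0.55 without atypical cells. A pass under the block is therefore conditional on that choice. In libraries 2 and 3 alone, with 2 fish per genotype, the difference between the mutants passed as well, at 1.47 (edgeR adjusted p = 0.0159, with 28.6% called). Atypical cells stayed in this denominator. They stood at 0.491, 64.5 and 62.2 per unknown immune cell in the cebp1 mutants and at 0.02, 0.827 and 2.71 in the cebpb mutants. In WT they stood at 0, 0.524 and 1.73. Their part in the difference between the mutants on this scale was not tested.

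**Figure D1:**
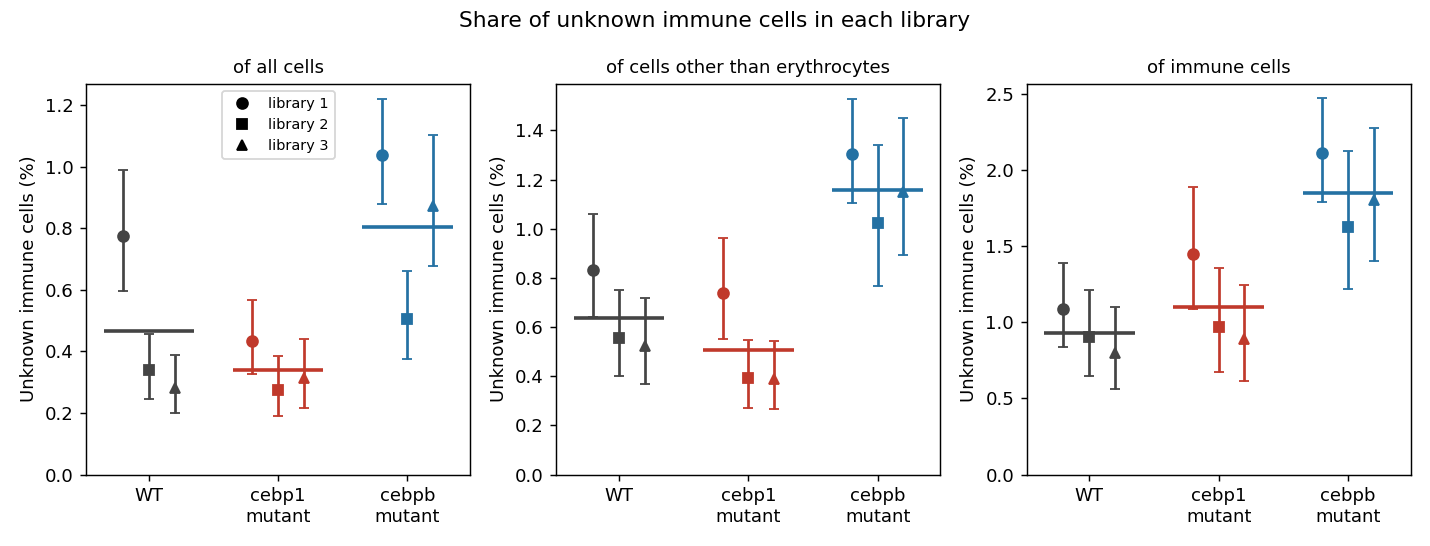
Unknown immune cells as a percentage of all cells (left), of cells other than erythrocytes (middle) and of immune cells (right) in each library, by genotype. Points are libraries (circle 1, square 2, triangle 3), whiskers are exact 95% binomial intervals and horizontal lines are means of 3 libraries. With genotypes as in the cell table, the cebpb mutants lie above both other genotypes in the middle and right panels, with means of 1.16% and 1.84%.

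A narrower denominator kept 7 types: neutrophils, eosinophils, macrophages, myeloid progenitors, T lymphocytes, B lymphocytes and the unknown immune cells themselves. Among these cells, unknown immune cells made up 1.09%, 0.900% and 0.797% in WT, 1.45%, 0.970% and 0.887% in the cebp1 mutants and 2.11%, 1.62% and 1.8% in the cebpb mutants. The cebpb mutants were again above all other fish, with ratios of means of 1.99 against WT and 1.67 against the cebp1 mutants (exact permutation p = 0.1 for both), and 42.9% of the 7 types did not overlap in each of these comparisons. The log2 differences were 0.99 (edgeR adjusted p = 0.0768) and 0.75 (edgeR adjusted p = 0.130), so neither passed. With the library number as a block, a pairing chosen from these same data, they were 0.99 (edgeR adjusted p = 0.0178) and 0.76 (edgeR adjusted p = 0.0429). Both passed, beside 28.6% and 57.1% of the 7 types called. In libraries 2 and 3 alone they were 1.01 (edgeR adjusted p = 0.0345) and 0.88 (edgeR adjusted p = 0.0334), beside 28.6% and 42.9% called. The cebp1 mutants were above WT here by 0.24 on the log2 scale (edgeR adjusted p = 0.544), the opposite sign to that over all cells. Neutrophils, a large part of this denominator, made up 13.2 to 25.8% of all cells in WT and 0.336 to 2.13% in the cebp1 mutants, and their part in that change of sign was not tested.

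Among cells of at least 2000 UMIs the cebpb mutants lay above WT, though the difference did not pass, and below that depth they overlapped WT. Among the deeper cells, unknown immune cells were 0.745%, 0.372% and 0.317% in WT, 0.515%, 0.138% and 0.255% in the cebp1 mutants and 1.12%, 0.990% and 0.999% in the cebpb mutants. The ratio of means was 2.17 between cebpb mutants and WT and 3.42 between the mutants, with no overlap in either (exact permutation p = 0.1), beside 20% and 40% of the types. The log2 differences were 1.12 (edgeR adjusted p = 0.367) and 1.77 (edgeR adjusted p = 0.0508), so neither passed. The cut also changed the denominator. Of the other cells, 73.1%, 58.5% and 55.5% had at least 2000 UMIs in WT. The values were 57.2%, 52.9% and 63.2% in the cebp1 mutants and 53.8%, 42.8% and 56.8% in the cebpb mutants. The part of this in the differences was not tested.

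Among cells under 2000 UMIs, unknown immune cells were 0.855%, 0.292% and 0.240% in WT, 0.325%, 0.427% and 0.411% in the cebp1 mutants and 0.946%, 0.136% and 0.703% in the cebpb mutants. All 3 genotypes overlapped in this class. The ratio of the cebpb mutants to WT was 1.29 (exact permutation p = 0.9). The difference between the deep and the shallow class was not tested.

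Because a share moves with every other type in the library, unknown immune cells were also counted against each of the 14 other types within a library. A ratio shows how the number of unknown immune cells stood to that of the other type, and either of them can move it. The values below are cells of the other type per unknown immune cell, and the log2 differences refer to the ratio of unknown immune cells to the other type, tested with limma and adjusted over the 14 types.

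Eosinophils, granulocytes of parasite defence and type 2 immunity, had a ratio with unknown immune cells that was called in all 3 comparisons, the only type of the 14 for which this held. There were 2.06, 5.57 and 3.89 eosinophils per unknown immune cell in WT, 12.5, 17.7 and 15.6 in the cebp1 mutants and 0.293, 0.885 and 0.362 in the cebpb mutants. These values use all 2406 cells of that name in the cell table, more than the eosinophil counts listed in the study's methods. Most of the excess lay in the cebp1 mutants, and ratios with the study's counts were not tested. The 3 genotypes did not overlap, and unknown immune cells outnumbered eosinophils only in the cebpb mutants. Of the 14 ratios, 14.3% did not overlap between cebp1 mutants and WT, 42.9% between cebpb mutants and WT and 50% between the mutants. The log2 difference was -2.09 (SE 0.56, limma adjusted p = 0.0332) for cebp1 mutants against WT, 2.94 (SE 0.56, limma adjusted p = 0.00722) for cebpb mutants against WT and 5.03 (SE 0.56, limma adjusted p = 0.000114) between the mutants. The first of these was no longer called without WT library 1 or 3, without any single cebp1 library or without cebpb library 3, with an adjusted p of up to 0.132. As a share of all cells, eosinophils themselves passed in all 3 comparisons, whereas unknown immune cells passed in none. The eosinophil differences were 1.73, -2.10 and -3.83 on the log2 scale (edgeR adjusted p = 0.00870, 0.00517 and 7.28e-05), in the same order. They too refer to all cells of that name in the cell table. The eosinophil percentages in the study, from its smaller counts, give a smaller rise in the cebp1 mutants. How much each type contributed to the ratio was not tested.

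Neutrophils, the phagocytic granulocytes, stood at 33.3, 46.3 and 46.7 per unknown immune cell in WT, 0.774, 1.97 and 6.82 in the cebp1 mutants and 13.4, 12.1 and 14.2 in the cebpb mutants. The 3 genotypes did not overlap here either, and in cebp1 library 1 there were fewer neutrophils than unknown immune cells. The log2 difference was 4.25 (SE 0.71, limma adjusted p = 0.00263) for cebp1 mutants against WT and -2.59 (SE 0.71, limma adjusted p = 0.0147) between the mutants. As a share of all cells, neutrophils themselves also passed in these comparisons, at -4.18 (edgeR adjusted p = 0.00585) and 3.43 (edgeR adjusted p = 0.00927). Against WT, 2 of 14 ratios (14.3%) were called for the cebp1 mutants, those with eosinophils and neutrophils. For the cebpb mutants 1 of 14 (7.14%) was called, that with eosinophils. With the library number as a block this count rose to 3, by neutrophils and thrombocytes, and in libraries 2 and 3 alone it was 2, by erythroid progenitors. For the cebp1 mutants against WT atypical cells joined in both settings, which gave 3 calls.

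Between the cebpb and cebp1 mutants 6 of 14 ratios (42.9%) were called. Besides eosinophils and neutrophils these were HSPCs, erythroid progenitors, myeloid progenitors and thrombocytes, the clotting cells of fish. As a share of all cells, these additional types did not pass between the mutants (edgeR adjusted p = 0.293, 0.233, 0.293 and 0.240, in that order). All 14 ratios share the number of unknown immune cells, so their calls are not independent. HSPCs numbered 17.1, 19.8 and 20.7 per unknown immune cell in WT, 20.6, 39.8 and 46.9 in the cebp1 mutants and 9.45, 13.1 and 7.99 in the cebpb mutants. The cebpb mutants lay below all WT and cebp1 mutant fish, as a separation that 42.9% and 50% of the ratios had, and WT overlapped with the cebp1 mutants. The log2 difference between the mutants was 1.75 (SE 0.46, limma adjusted p = 0.0147).

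The remaining calls had the same direction, with fewer cells of the other type per unknown immune cell in the cebpb mutants. Thrombocytes stood at 2.20 ± 0.724 per unknown immune cell in WT, 3.55 ± 2.09 in the cebp1 mutants and 0.749 ± 0.444 in the cebpb mutants (SD, n = 3). Erythroid progenitors stood at 12.2 ± 6.59, 18.7 ± 2.35 and 4.56 ± 0.558, and myeloid progenitors at 4.35 ± 2.53, 10.5 ± 9.0 and 1.87 ± 0.463, in the same order. The log2 differences of these ratios between the mutants were 2.24 (SE 0.62), 2.02 (SE 0.54) and 2.14 (SE 0.68), at limma adjusted p = 0.0147, 0.0147 and 0.0275.

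The number of calls between the mutants depended on single libraries. It was 7 with the library number as a block (atypical cells added) and 8 in libraries 2 and 3 alone (atypical cells and macrophages added). It was 2 without cebp1 library 2 (eosinophils and myeloid progenitors), 1 without cebpb library 1 (eosinophils) and 2 without cebpb library 3 (eosinophils and thrombocytes). Myeloid progenitors were also not called without cebp1 library 3 (limma adjusted p = 0.0958) or cebpb library 2 (limma adjusted p = 0.0820). The ratio with eosinophils remained called without any 1 of the 9 libraries. In cells of at least 2000 UMIs the ratio with neutrophils between the mutants was not called (limma adjusted p = 0.0869), nor was that with eosinophils between the cebp1 mutants and WT (limma adjusted p = 0.0936). Among the types without a call, B lymphocytes stood at 24.3, 24.1 and 23.6 per unknown immune cell in the cebp1 mutants, a range narrower than that in WT (14.03 to 28.6) and in the cebpb mutants (8.12 to 20.7).

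**Figure D2:**
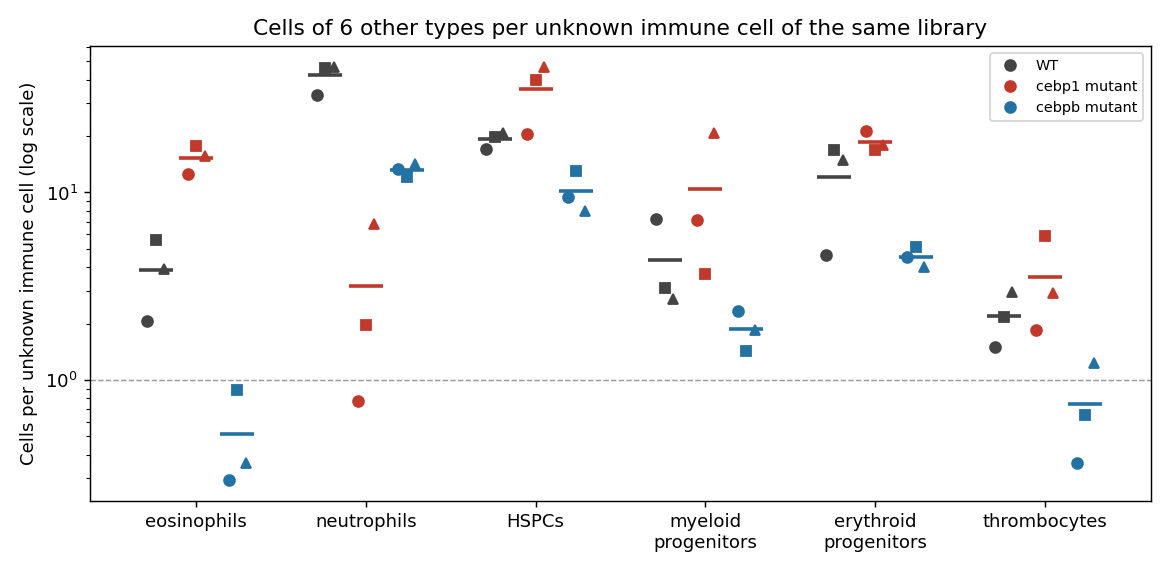
Cells of 6 other types per unknown immune cell of the same library, on a log scale. Points are libraries (circle 1, square 2, triangle 3), horizontal lines are means of 3 libraries and the dashed line marks equal numbers. Eosinophils separate the 3 genotypes, and the cebpb mutants lie lowest for HSPCs, with a mean of 10.2 against 19.2 in WT and 35.8 in the cebp1 mutants.

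In size of the captured transcriptome, unknown immune cells stood in the middle of the 15 types. Over all 534 cells the number of UMIs ran from 1010 to 15096 with a median of 2464, the number of genes from 257 to 2892 with a median of 802.5, and the mitochondrial percentage from 0.325 to 14.6% with a median of 3.46%. The lower end was set by the filter of the deposited table, which held only cells above a minimum number of UMIs. Averaged over libraries, their median of 2475 UMIs ± 588 (SD, n = 9) ranked the eighth from the highest. Eosinophils (2641 ± 1323) and erythrocytes (2497 ± 786) were next above, and T lymphocytes (1996 ± 230) and B lymphocytes (1993 ± 216) next below. Unknown immune cells had the higher median in 5 of 9 libraries against eosinophils and erythrocytes and in 8 of 9 against T and B lymphocytes.

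Genes detected per cell placed unknown immune cells higher, at the fifth rank with a mean of library medians of 783 ± 133. Neutrophils (1056 ± 476) and HSPCs (957 ± 322) were next above, and erythroid progenitors (771 ± 134) and eosinophils (632 ± 266) next below. The median number of genes exceeded that of all other cells in every library except cebp1 library 2, where it was 513.5 against 556. Erythrocytes, which had the fewest genes of the 15 types (357 ± 94.1), are among these other cells. Their part in the excess was not tested. In the mitochondrial percentage unknown immune cells ranked the eighth (4.84% ± 3.02), next to neutrophils (4.96% ± 3.47) and endothelial cells (4.85% ± 2.38) above and macrophages (4.69% ± 2.85) and B lymphocytes (4.44% ± 2.74) below. These neighbours differed by less than the spread over libraries.

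**Figure D3:**
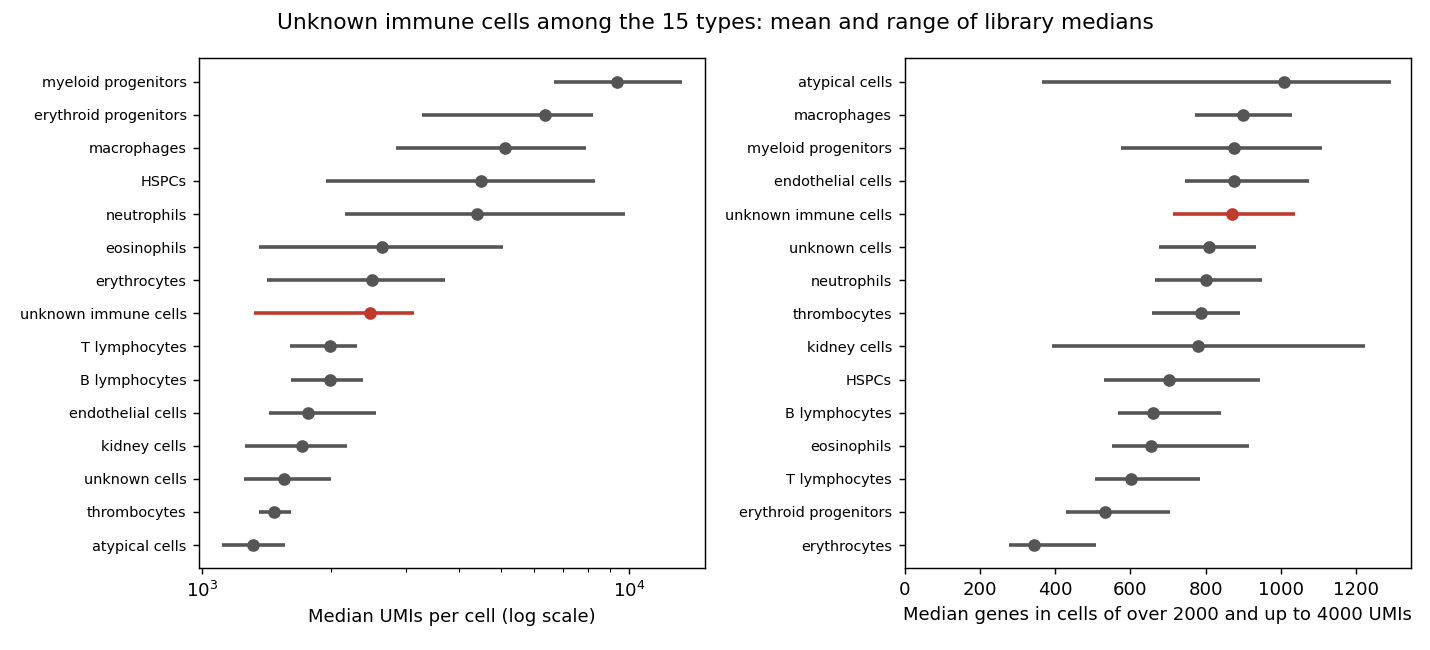
The 15 annotated types ordered by median UMIs per cell (left, log scale) and by median genes in cells of over 2000 and up to 4000 UMIs (right). Points are means of library medians and bars run from the lowest to the highest library. Unknown immune cells (red) hold the eighth place in UMIs at 2475 and the fifth in genes within that window of UMIs at 870.

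More genes can be detected in a cell with more UMIs, so genes were also compared within windows of UMIs. Depth was not matched further inside a window. In cells of over 2000 and up to 4000 UMIs, unknown immune cells had library medians between 713.5 and 1039 genes (201 cells, 3 to 56 per library). They exceeded the other cells without erythrocytes, whose medians ran from 621 to 952.5, in 9 of 9 libraries. The median UMIs of unknown immune cells in that window were below those of the other cells in WT library 2 (2274 against 2546) and cebpb library 1 (2630 against 2701). In the remaining libraries they were above, as in WT library 3 (3028 against 2609). In cells of up to 2000 UMIs their medians ran from 353.5 to 700 genes (201 cells, 8 to 63 per library), and they were higher in 6 of 9 libraries. In that window the exceptions were WT library 3 (353.5 against 359), cebp1 library 2 (483 against 504) and cebp1 library 3 (600 against 636). The median UMIs of unknown immune cells were lower in these libraries too, at 1357 against 1469, 1213 against 1399 and 1216 against 1392. They were also lower in WT library 2 (1211 against 1478) and cebpb library 1 (1382 against 1405), where the genes were higher. The part of depth in these differences was not tested. Within libraries the rank correlation of UMIs with genes over unknown immune cells ran from 0.84 to 0.98, as a description, since both are counted from the same molecules.

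**Figure D4:**
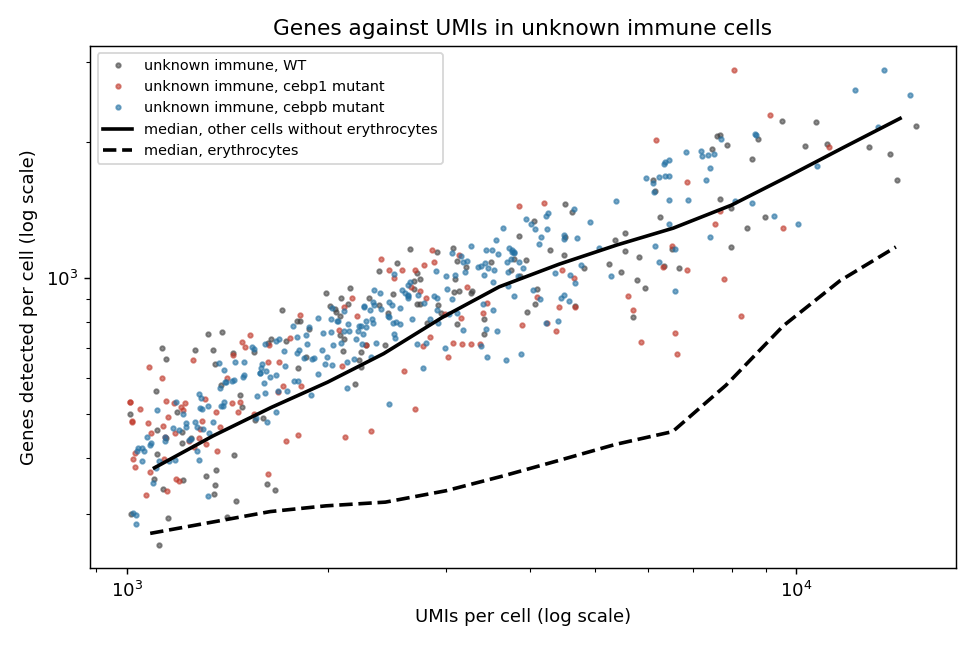
Genes detected against UMIs for each of the 534 unknown immune cells (points, by genotype), both on log scales. The solid line joins medians of the other cells without erythrocytes and the dashed line those of erythrocytes, in bins of UMIs. The points of the 3 genotypes lie among each other around and above the solid line, and the number of genes spans 257 to 2892.

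Pooled over libraries, very large cells were less frequent among unknown immune cells than among the other cells. Of the 534 cells, 91 (17.0%) had at least 5000 UMIs against 24.1% of the other cells, and 14 (2.62%) had at least 10000 against 6.44%. By library, the share of at least 5000 UMIs was higher in unknown immune cells in WT library 2 (26.2 against 24.7%), WT library 3 (35.1 against 23.4%) and cebpb library 2 (23.1 against 16.0%), and that of at least 10000 in WT library 2 (4.76 against 3.49%) and cebpb library 2 (5.77 against 2.91%). At the low end, again pooled, 201 (37.6%) had fewer than 2000 UMIs against 43.5% of the other cells. The libraries differed widely in this class, from 8 of 52 unknown immune cells (15.4%) in cebpb library 2 to 25 of 34 (73.5%) in cebp1 library 2. In these libraries 57.2% and 47.1% of the other cells were under 2000 UMIs, and WT library 1 and cebp1 library 3 also had a higher share of such cells among unknown immune cells than among the others.

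The genotypes overlapped in the UMIs of unknown immune cells. The library medians were 2698.5, 2257.5 and 3114 UMIs in WT, 3023, 1326.5 and 2076 in the cebp1 mutants and 2372, 3131.5 and 2276 in the cebpb mutants. The lowest and the second lowest value were both from cebp1 mutants, but their library 1 was among the highest. The log2 difference was -0.40 (95% interval -1.05 to 0.26, limma adjusted p = 0.413) for cebp1 mutants against WT, -0.06 (-0.71 to 0.60, limma adjusted p = 0.853) for cebpb mutants against WT and 0.34 (-0.32 to 1.0, limma adjusted p = 0.761) between the mutants. Of the 14 types tested, 0%, 0% and 14.3% were called in these comparisons.

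The number of genes per unknown immune cell overlapped likewise. The library medians were 969, 764 and 819 genes in WT, 714, 513.5 and 823 in the cebp1 mutants and 801, 928 and 712 in the cebpb mutants. The log2 differences were -0.34 (95% interval -0.86 to 0.18, limma adjusted p = 0.653), -0.07 (-0.59 to 0.45, limma adjusted p = 0.986) and 0.27 (-0.25 to 0.79, limma adjusted p = 0.784), with 0%, 0% and 7.14% of types called. The intervals of all 3 comparisons hold differences of either sign, so equal size was not shown.

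The mitochondrial percentage of unknown immune cells set library 1 of each genotype apart, and libraries 2 and 3 had no common order. The medians were 1.19%, 6.10% and 6.59% in WT, 1.70%, 5.13% and 4.03% in the cebp1 mutants and 1.76%, 6.56% and 10.5% in the cebpb mutants. Library 1 was the lowest in each genotype, as it was for all other cells, whose medians were 0.881%, 1.63% and 1.69% there. In 9 of 9 libraries the median of unknown immune cells was higher than that of the other cells, by 0.0624 to 1.88 percentage points. The other cells include erythrocytes, which had the lowest mitochondrial percentage of the 15 types (2.54% ± 1.75). Against single types, unknown immune cells were higher in 9 of 9 libraries than erythrocytes and HSPCs. They were higher in 0 of 9 than T lymphocytes, thrombocytes and kidney cells. Between genotypes the log2 differences were -0.15, 0.44 and 0.59 (limma adjusted p = 0.987, 0.829 and 0.848), with 0% of types called in all 3 comparisons.

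**Figure D5:**
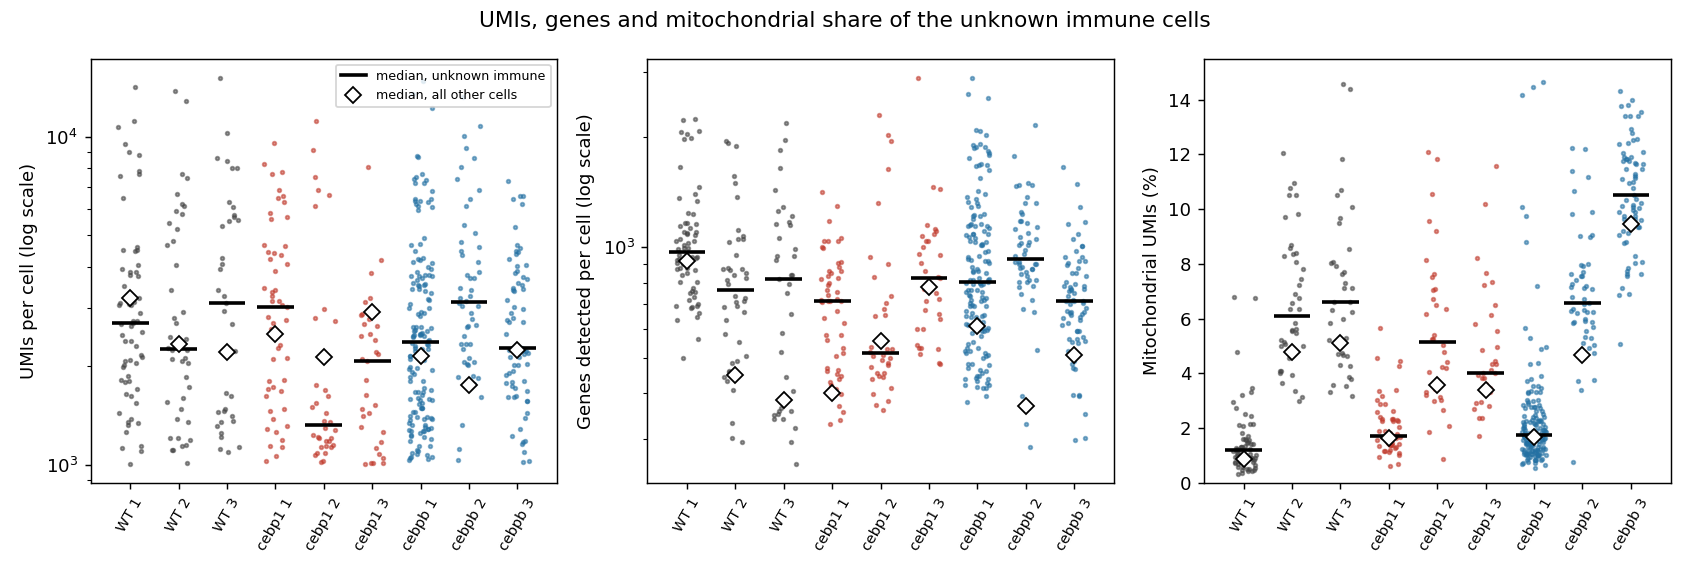
UMIs (left, log scale), detected genes (middle, log scale) and mitochondrial percentage (right) of each unknown immune cell by library. Points are cells, black lines are medians of unknown immune cells and open diamonds are medians of all other cells of the library. Library 1 of each genotype has the lowest mitochondrial median, from 1.19 to 1.76%, and cebp1 library 2 the lowest median UMIs at 1326.5.

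The share of unknown immune cells was set against 3 properties of the whole library over the 9 libraries. Pearson's r was -0.53 with the erythrocyte share (exact permutation p = 0.138, adjusted 0.554 over 4 relations; Spearman's rho -0.32, p = 0.410, adjusted 0.818). It was 0.04 with median UMIs (exact permutation p = 0.928, adjusted 0.988; rho 0.07, p = 0.880, adjusted 0.880) and -0.23 with the number of cells (exact permutation p = 0.558, adjusted 0.988; rho -0.28, p = 0.463, adjusted 0.818). Without the 2 libraries farthest from the median of the property, r was -0.55, -0.09 and 0.54 (n = 7).

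For the fourth relation, with the mitochondrial percentage, no value over all 9 libraries is given because library 1 of each genotype formed a separate cluster, and its p over them served only the adjustment over 4 relations. Over libraries 2 and 3 of each genotype (n = 6) r was 0.92 (exact permutation p = 0.0653, adjusted 0.131; rho 0.49, p = 0.356, adjusted 0.711), and 0.25 without the 2 farthest libraries (n = 4), so the value rested on those libraries. Within the same 6 libraries r with the number of cells was -0.91 (exact permutation p = 0.0194, adjusted 0.0778; rho -0.71, p = 0.136, adjusted 0.544) and -0.64 without the 2 farthest. For the erythrocyte share and median UMIs, r over these 6 libraries was -0.21 and -0.24 (exact permutation p = 0.763 and 0.524, adjusted 0.763 and 0.698). Without the 2 farthest libraries it was -0.73 and 0.17. None of the 4 relations passed after adjustment. The permutations exchanged libraries across genotypes. Among these 6 libraries, cebpb libraries 2 and 3 had the highest shares (0.504% and 0.871%) and the fewest cells (10326 and 7918). The highest mitochondrial median was that of cebpb library 3 (9.47%). The relations with the number of cells and the mitochondrial percentage therefore cannot be told apart from genotype here.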

How the data were processed

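The submitters' processing notes name Cell Ranger, Seurat and the genome build GRCz11. For every cell the authors deposited the raw UMI count, the number of genes and the mitochondrial percent of its UMIs. The authors had kept cells above minimum numbers of UMIs and genes, of up to 15% mitochondrial UMIs and without doublet features. No further cell was removed, and cell types were the authors' annotation. Library numbers rest on a match of cells per barcode suffix with the totals in the study's methods. Fish and preparations vary together, so p-values cover both.

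Cells of 15 types per library were tested by the quasi-likelihood method of edgeR 4.0.16 (R 4.3.3) with the total as offset. Ratios (pseudocount 0.5 on both numbers) and log2 library medians (14 types, none under 20 cells in a library) were tested with limma 3.58.1. Only in the alternative with means of log2 values did the mitochondrial percentage have 0.1 added before the log. Benjamini-Hochberg adjustment was per comparison, at a threshold of 0.05. Exact permutation tests were two-sided, and SciPy 1.17.1 gave the exact binomial intervals. DESeq2 1.42.0 was an alternative. The scripts were tested on simulated data. Same-numbered libraries were paired by the criterion that all 9 correlations of their deviations from the genotype mean exceeded 0.1 (lowest 0.28, median 0.62), though without atypical cells the lowest was -0.55. The comparisons, lists and members were chosen with earlier results of these data known. Types named were the neighbours of unknown immune cells in each order and those with a called ratio. B lymphocytes under the ratios were named after their values were seen. The sorted eosinophil library was not used here.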

Additional observations from a re-analysis of the deposited data

How the results depend on the processing

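Of 348 differences recomputed under the alternatives, counts of called ratios left out, 292 kept their direction and side of the threshold. A further 27 changed sign, 23 lost a call and 6 gained one. All 23 lost calls were of ratios, the only differences called in the main setting. Part of the 292 could not change direction. In the limma fits the block, a fit of only the 2 groups compared, or leaving out a library of the third genotype returns the same difference. For the share, the log2 difference of cebp1 mutants against WT turned to 0.24 with immune cells as denominator, 0.23 with the replicate block added and 0.13 with only libraries 2 and 3 added. The combined alternatives and the classes under 2000 UMIs were chosen after seeing the data. The cebpb mutants against WT passed with immune cells and the block (0.99, edgeR adjusted p = 0.0178) and with immune cells in libraries 2 and 3 (1.01, adjusted p = 0.0345). The mutants differed past the threshold without erythrocytes with the block (1.25, adjusted p = 0.0362) or in libraries 2 and 3 (1.47, adjusted p = 0.0159), and with immune cells with the block (0.76, adjusted p = 0.0429) or in libraries 2 and 3 (0.88, adjusted p = 0.0334). Over the 27 alternatives, which include DESeq2 and limma on logit shares besides edgeR fits, the adjusted p ran from 0.198 to 0.944, from 0.0178 to 0.911 and from 0.0159 to 0.740 for the comparisons in the order of cebp1 against WT, cebpb against WT and cebpb against cebp1. The pairing by library number alone (replicate block, all cells) gave -0.36, 0.86 and 1.22 in that order, with no call changed. Leaving out 1 library gave -0.70 to 0.13, 0.54 to 1.37 and 1.01 to 1.49.

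No median was called under any alternative, and the signs of these small differences were not stable. For median UMIs, cebpb against WT turned to 0.27 relative to the other cells (also with the replicate block) and to 0.0099 in libraries 2 and 3, and the difference between the mutants to -0.26 in cells of at least 2000 UMIs. Leaving out 1 library gave -0.68 to -0.09, -0.20 to 0.056 and 0.03 to 0.63. For median genes, cebp1 against WT turned to 0.045 in cells of at least 2000 UMIs and 0.049 in cells of up to 2000, cebpb against WT to 0.015 with means of log2 values, 0.086 relative to the other cells, 0.039 in libraries 2 and 3 and 0.29 in cells of up to 2000 UMIs, and the mutants to -0.12 in cells of at least 2000 UMIs. Leaving out 1 library gave -0.48 to -0.14, -0.16 to 0.032 and 0.08 to 0.42. For the mitochondrial percentage, cebpb against WT turned to -0.15 and the mutants to -0.050 relative to the other cells, and leaving out 1 library gave -0.95 to 0.32, -0.36 to 1.19 and 0.05 to 1.34. The cause of these changes of sign was not tested.

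The number of called ratios for cebp1 against WT was 1 in cells of at least 2000 UMIs. For cebpb against WT it was 3 with the replicate block and 2 in libraries 2 and 3. Leaving out 1 library gave 1 to 2, 1 to 2 and 1 to 7 calls. No called ratio changed direction. With 3 fish per genotype and 33 to 150 unknown immune cells per library, no exact test of 3 against 3 fish could pass the threshold.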
